A study of Mus musculus with 4 samples.

Results

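The cytosolic ribosomal protein genes encode the proteins that, with ribosomal RNA, form the ribosome outside mitochondria. They were taken from the gene rows by symbol (Rpl, Rplp or Rps followed by a number with an optional a, x or y, and Rpsa and Rps3a1). The rule found 77 of 32531 gene rows, 46 of the large and 31 of the small subunit. The 4 libraries compared were of total RNA, all labelled as input, 2 from dorsal striatum and 2 from nucleus accumbens. All came from mice of the line Drd1-TRAP CP73 aged over 20 months. In this line the promoter of the dopamine receptor gene Drd1 drives a fusion of EGFP and Rpl10a in Drd1-expressing neurons, so 1 of the 77 genes, Rpl10a, is part of the transgene that both regions carry. The fusion is made for affinity purification of tagged ribosomes, and input is taken here as RNA that was not purified in that way. Whether the 2 libraries of a region are from different animals is not stated. Every p-value here therefore reflects the spread between samples alone, and that spread may be technical.

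Each ribosome holds 1 copy of nearly every ribosomal protein, and the 2 subunits are assembled in the nucleolus from proteins that are made in the cytosol and imported. The messenger RNAs are short, abundant and begin with a run of pyrimidines, the 5′ terminal oligopyrimidine (TOP) motif, through which mTORC1 and its target LARP1 set their translation. In neurons, some of these messenger RNAs are also found in axons and dendrites, where they are among the most abundant transcripts.

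Most ribosomal protein genes had higher levels in accumbens, in both subunits, but few passed the test. Of the 76 genes with enough counts to test, 68 (89.5%) had a log2 fold change, accumbens over dorsal striatum, above 0, against 51.4% of all 14493 genes tested. In 60 of the 76 (78.9%) both accumbens libraries lay above both dorsal striatum libraries, which was so for 25.6% of all tested genes. An unadjusted p under 0.05 with a higher level in accumbens was found for 42 (55.3%), against 10.9% of all tested genes, and in the other direction for 0. After Benjamini-Hochberg adjustment over all tested genes, 6 ribosomal protein genes (7.89%) were higher in accumbens in edgeR's quasi-likelihood test, against 0.994% of all tested genes. None was lower, against 0.29% of all. The median log2 fold change of the 76 was 0.56, with quartiles of 0.31 and 0.88, and that of all tested genes was 0.02. In bulk RNA, more ribosomal protein messenger RNA per cell and more cells rich in it cannot be told apart.

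The scaling of the libraries moved these values as a block. With library size alone the median of all tested genes was −0.15, that of the ribosomal protein genes was 0.39, 64 of 76 were above 0, and 3 passed the threshold (Rps27, Rpl41 and Rpl10a). Of all calls, 77.4% were higher in accumbens with TMM scaling. That part was 67.4% under upper quartile scaling, and library size alone gave 29.5%. The number of ribosomal protein genes past the threshold rested on single libraries, as did that of all tested genes. The median log2 fold change of the ribosomal protein genes was 0.43 without dorsal striatum replicate 1 and 0.65 without dorsal striatum replicate 2. It was 0.58 without accumbens replicate 1 and 0.53 without accumbens replicate 2. The median of all tested genes lay between −0.02 and 0.03 in these fits. In each of these fits 1 region has a single library, which is assumed to vary like the pair of the other region.

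**Figure D1:**
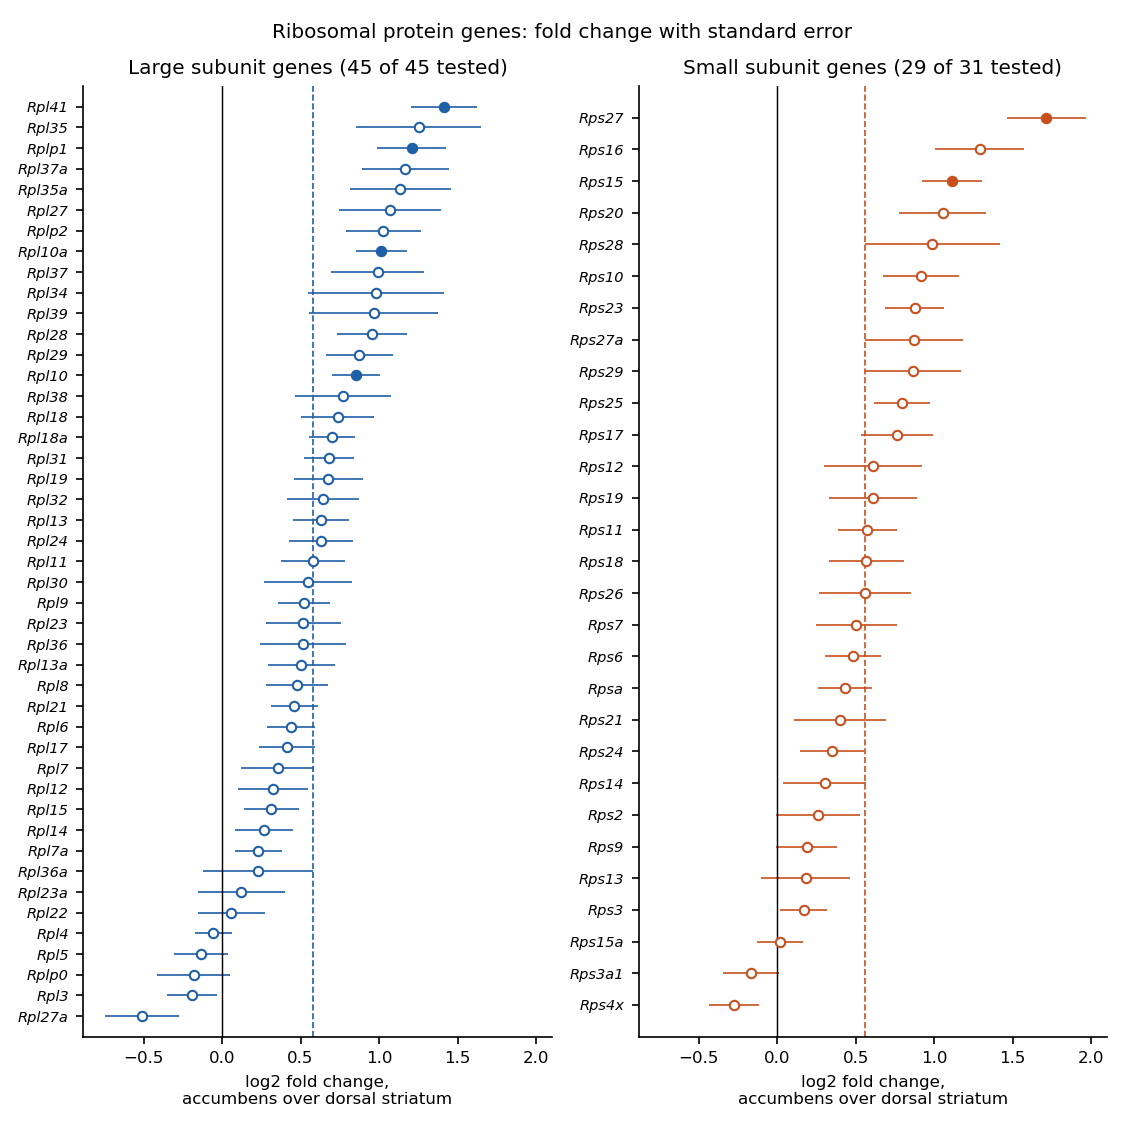
Log2 fold change (horizontal axis, accumbens over dorsal striatum, edgeR) of 45 tested large subunit genes (left, blue) and 29 of 31 tested small subunit genes (right, orange), with bars of 1 standard error. Filled points passed an adjusted p of 0.05, dashed lines mark the medians (0.58 and 0.56), and most points lie right of 0 in both panels.

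Depth ran from 8478403 counts assigned to genes (accumbens replicate 2) to 11849134 (dorsal striatum replicate 2). The ribosomal protein genes took 0.3003% (95% Clopper-Pearson interval 0.297 to 0.304) and 0.340% (0.337 to 0.344) of these counts in dorsal striatum. They took 0.372% (0.368 to 0.377) and 0.399% (0.395 to 0.404) in accumbens. These intervals cover counting error only. Both accumbens libraries lay above both dorsal striatum libraries, at 0.386% ± 0.0190 (SD, n = 2) against 0.320% ± 0.0284 (SD, n = 2), a ratio of 1.20. A 2-sided exact permutation test gave p = 0.333, the smallest that 2 against 2 libraries allow. Other features moved with region in the same libraries, and their part in the results was not tested. Rn45s, the row of the ribosomal RNA precursor, held 2.03% and 3.34% of all gene counts in the dorsal striatum libraries against 5.61% and 5.94% in those of accumbens, and the row AK140265 held 6.91% and 4.38% against 9.29% and 10.3%. Genes with at least 1 count numbered 16915 and 17417 in the accumbens libraries against 19519 and 19532 in those of dorsal striatum, and ambiguous reads were 8.41% and 9.46% of counted rows against 7.38% and 6.06%. With Rn45s and AK140265 out of the denominator, the difference in share was 0.108 in place of 0.0655 percentage points. The 12 markers of spiny projection neurons, the main neurons of both regions, were present and summed to 7195 and 7325 CPM (TMM-scaled counts relative to library size) in dorsal striatum and to 6501 and 5388 CPM in accumbens. Of these, 1 was higher and 1 lower in accumbens past the threshold. Markers of cortical glutamatergic neurons summed to 179 and 97.1 CPM in dorsal striatum and 392 and 246 in accumbens (0 of 10 past the threshold, median log2 fold change 0.69). Microglial markers summed to 98.7 and 64.9 against 125 and 107 CPM (0 of 10, median 0.63). The medians of the other marker lists were 0.05 for astrocytes, of which 1 of 10 was higher past the threshold, and 0.17 for oligodendrocytes, 0.41 for endothelium, −0.02 for ependyma and choroid plexus and 0.38 for neuroblasts, with 0 past the threshold in each.

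The ratio of large to small subunit counts was nearly the same in all 4 libraries. Counts of large subunit genes were 1.95 and 1.96 times those of small subunit genes in dorsal striatum and 1.96 and 1.93 times in accumbens. The mean log2 ratio was 0.97 ± 0.00585 in dorsal striatum and 0.96 ± 0.0157 in accumbens (SD, n = 2 each), and the regions overlapped (exact permutation p = 0.667, 2-sided, smallest possible 0.333). Of 45 tested large subunit genes, 4 passed the threshold, all higher, and the median log2 fold change was 0.58. Their levels were non-overlapping and higher in accumbens for 37 (82.2%), and non-overlapping and lower for 2. Of 31 small subunit genes, 2 passed, both higher, and the median was 0.56. Here 23 (74.2%) were non-overlapping and higher, and 2 non-overlapping and lower. Non-overlapping higher levels were found for 25.6% of all tested genes. The number of genes above 0 was 40 of 45 and 28 of 31. Over the 4 pairings of an accumbens with a dorsal striatum library, the median log2 ratio of the 76 genes ran from 0.41 (accumbens replicate 1 over dorsal striatum replicate 2) to 0.67 (accumbens replicate 2 over dorsal striatum replicate 1), with 61 to 70 genes above 0. The 4 pairings reuse the same 4 libraries and are not independent.

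Rpl10a, which encodes the protein of the L1 stalk that moves with transfer RNA leaving the ribosome, stood at 56.6 and 68.9 CPM in dorsal striatum and at 124 and 130 CPM in accumbens. The regions did not overlap, and the accumbens mean of 127 ± 4.08 was 2.02 times the dorsal striatum mean of 62.8 ± 8.70 (SD, n = 2 each). On the log2 scale this is a change of 1.01 (SE 0.16, adjusted p = 0.0380 in edgeR). Without dorsal striatum replicate 1 it did not pass (adjusted p = 0.149). Reads from the native gene on chromosome 17 (28328471 to 28331033, plus strand, GRCm38) and from the coding part of the transgene cannot be told apart in this row. Among the 22 tested ribosomal protein genes with a coding sequence longer than 600 bases, Rpl10a had the highest fold change, against a median of 0.29 for the 22. Its counts were 1.11 and 1.14 times the median of the 21 others in dorsal striatum and 1.97 and 2.13 times in accumbens. Its part of large subunit counts was 3.02% and 3.24% against 4.71% and 4.65%. Drd1, whose promoter drives the transgene, was lower in both accumbens libraries, at 258 and 220 CPM against 299.98 and 286 CPM in dorsal striatum, with a log2 fold change of −0.29 (SE 0.13, adjusted p = 0.273).

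Among the other large subunit genes, Rpl41 had the largest fold change. Rpl41 encodes a very short basic peptide at the interface of the subunits. It stood at 25.6 and 35.9 CPM in dorsal striatum and at 78.2 and 86.1 CPM in accumbens, with no overlap, and it changed by 1.41 on the log2 scale (SE 0.21, adjusted p = 0.0302 in edgeR). Its adjusted p was 0.0570 without dorsal striatum replicate 1. Its coding sequence, shown because it is the shortest of all the members, has 25 codons before the stop codon, and the 17 for lysine or arginine are in capitals. It was read from the GENCODE M21 transcript of the gene on chromosome 10 (128548114 to 128549305, minus strand, GRCm38).
Rpl41: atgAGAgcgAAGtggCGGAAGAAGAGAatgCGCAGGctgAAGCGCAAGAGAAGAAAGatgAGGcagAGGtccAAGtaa

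The 3 genes of the P stalk, the flexible arm that recruits elongation factors, had fold changes on both sides of 0, and 1 of them passed the threshold. Rplp1, an acidic protein of the arm, stood at 19.5 and 25.7 CPM in dorsal striatum and at 49.4 and 55.4 CPM in accumbens (log2 fold change 1.21, SE 0.22, edgeR adjusted p = 0.0470). It passed the threshold under 8 of 15 alternatives, and reached an adjusted p of 0.345 when replicate 1 of dorsal striatum was left out and of 0.0670 when replicate 2 was. Its partner Rplp2 stood at 15.2 and 17.5 CPM against 31.2 and 35.5 CPM, with no overlap (1.03, SE 0.24, adjusted p = 0.0802). Rplp0, the base that anchors both to the ribosome, had values of 25.5 and 26.4 CPM in dorsal striatum and of 24.4 and 21.4 CPM in accumbens (−0.18, SE 0.23, adjusted p = 0.734). The difference between Rplp0 and its partners was not tested.

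Of the proteins around the peptidyl transferase centre, Rpl10, which joins the large subunit last and lies near the transfer RNA sites, stood at 99.2 and 104 CPM in dorsal striatum and at 165 and 201 CPM in accumbens. Its regions did not overlap (log2 fold change 0.85, SE 0.15, edgeR adjusted p = 0.0439), and leaving out dorsal striatum replicate 1 or 2 raised its adjusted p to 0.136 or 0.0837. Rpl8 went from 34.6 and 44.0 to 56.6 and 52.8 CPM (0.48, SE 0.20, adjusted p = 0.239). Rpl3, one of the longest members, had overlapping regions, at 158 and 199 against 148 and 164 CPM (−0.19, SE 0.16, adjusted p = 0.553). In the complex with 5S ribosomal RNA, which also binds the p53 regulator MDM2, Rpl11 had a log2 fold change of 0.58 (SE 0.20, adjusted p = 0.177) and Rpl5 one of −0.13 (SE 0.17, adjusted p = 0.732). Neither passed the threshold.

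Along the exit tunnel for the new protein, 7 of 8 genes were tested, none passed, 5 had non-overlapping higher levels, and the median was 0.68. Non-overlapping higher levels were found for 78.9% of all 76 tested members and 25.6% of all tested genes. Rpl35, at the rim of the tunnel, had 3.99 and 5.10 CPM in dorsal striatum and 11.02 and 10.8 CPM in accumbens (log2 fold change 1.25, SE 0.40, adjusted p = 0.145). In the annotation, 68.3% of its exon bases overlap another gene. Rpl31 stood at 58.3 and 60.9 against 89.7 and 101 CPM (0.68, SE 0.16, adjusted p = 0.0802), and Rpl39, which lines the tunnel, at 7.04 and 7.81 against 9.79 and 19.3 CPM (0.96, SE 0.41, adjusted p = 0.248). Rpl34, which is not among these 8 genes and was named for a low level per kilobase of transcript, had a similar change. It stood at 5.15 and 6.22 against 14.5 and 8.001 CPM (0.98, SE 0.43, adjusted p = 0.263). Rpl39 and Rpl34 differed between their own accumbens libraries by more than their regions differed at the closest. Rpl4, which reaches into the tunnel, had overlapping regions at 330 and 351 against 322 and 333 CPM (−0.06, SE 0.12, adjusted p = 0.849). Rpl26, also at the tunnel exit, was listed with 0 counts in each of the 4 libraries and was not tested. A count of 0 allows up to 3 counts per library, and Rpl26 has near-identical copies elsewhere in the genome, as most members do.

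Rpl27a had the lowest fold change of all members. It stood at 30.6 and 35.1 CPM in dorsal striatum and at 20.3 and 25.8 CPM in accumbens, so that its regions did not overlap in the opposite sense to most of its family. The fold change was −0.51 on the log2 scale (SE 0.24, adjusted p = 0.286 in edgeR), short of the threshold. Without accumbens replicate 2 it passed.

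In the small subunit, Rps27, a zinc finger protein also known as metallopanstimulin, had the largest fold change of all 76 genes. Its level was 13.3 and 18.2 CPM in dorsal striatum and 58.6 and 45.4 CPM in accumbens, means of 15.8 ± 3.47 and 52.0 ± 9.34 (SD, n = 2 each). The lower accumbens library thus stood well above the higher dorsal striatum library, and the change was 1.71 on the log2 scale (SE 0.25, adjusted p = 0.0299 in edgeR). It passed the threshold under 13 of 15 alternatives, including each library left out in turn, and failed with both length offsets described below. Rps15, whose tail reaches toward the decoding site, stood at 60.9 and 76.8 CPM against 130 and 169 CPM (1.11, SE 0.19, adjusted p = 0.0431), and its adjusted p was 0.0710 without dorsal striatum replicate 1. Rps16, whose tail contacts the transfer RNA in the peptidyl site, stood at 8.93 and 11.2 against 24.4 and 25.003 CPM (1.29, SE 0.28, adjusted p = 0.0698). Rps20 was close to it, at 10.6 and 10.8 against 23.3 and 21.1 CPM (1.05, SE 0.28, adjusted p = 0.105).

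The other genes of the decoding site and messenger RNA entry, Rps23, Rps2 and Rps3, did not pass, with log2 fold changes of 0.88, 0.26 and 0.17. The 3 beak genes were Rps10, Rps12 and Rps27a, the last a fusion with ubiquitin. All 3 had non-overlapping higher levels, with a median of 0.87, and none passed. In the annotation, 91.6% of the exon bases of Rps10 overlap another gene. At the messenger RNA exit and platform, 4 of 5 genes had non-overlapping higher levels (median 0.56, 0 passed). Such levels were found for 78.9% of all 76 tested members and 25.6% of all tested genes. Rps6, the target of S6 kinase that is widely used as a readout of mTORC1 activity, stood at 42.7 and 49.97 against 68.5 and 61.0 CPM (0.48, SE 0.18, adjusted p = 0.201). Genes of the small subunit with a lower mean in accumbens included Rps4x and Rps3a1. Rps4x, encoded on the X chromosome, stood at 81.6 and 84.5 against 64.3 and 72.6 CPM (−0.28, SE 0.16, adjusted p = 0.384), and Rps3a1 had a log2 fold change of −0.17 (SE 0.18, adjusted p = 0.661). Rps15a was flat, at 104 and 115 against 105 and 116 CPM (0.02, SE 0.15), and it was below 0 with library size alone (−0.16) and with upper quartile scaling (−0.04). Rps24, named for a low level per kilobase of transcript, stood at 38.2 and 31.0 against 41.5 and 46.5 CPM (0.35, SE 0.21, adjusted p = 0.401).

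**Figure D2:**
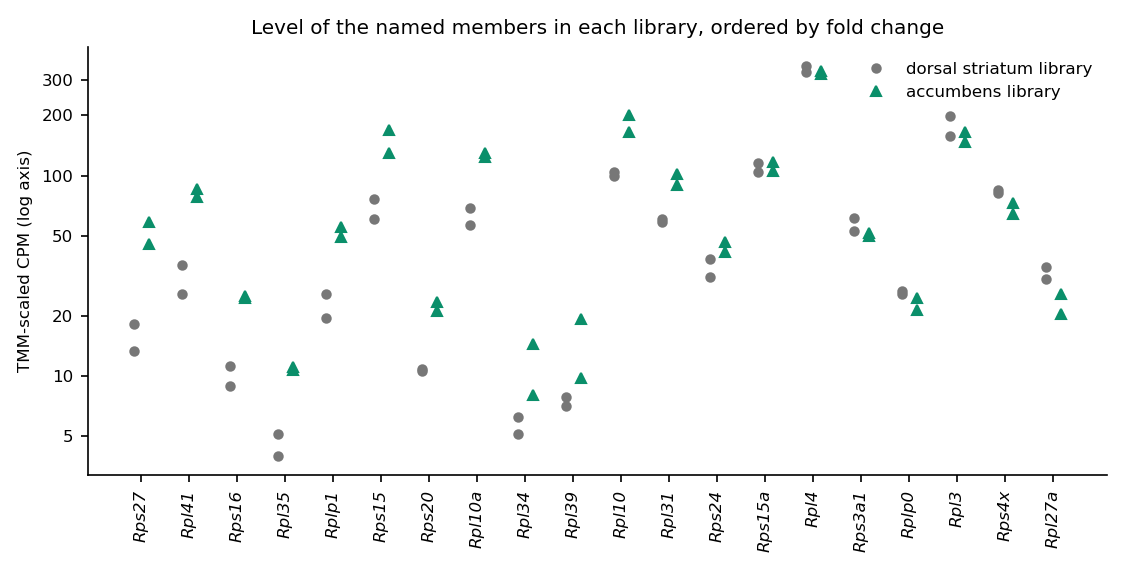
TMM-scaled CPM (log axis) in each of the 4 libraries for the 20 genes named by rule and reported here, ordered from the highest to the lowest fold change. Dorsal striatum libraries are grey circles and accumbens libraries green triangles, which separate at the left (Rps27, 13.3 and 18.2 against 58.6 and 45.4), meet near Rps15a and fall below the circles for Rpl27a.

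Although ribosomes hold most of these proteins in equal number, levels per kilobase of transcript differed widely between genes. Rps15 (218 CPM per kb, mean of the 4 libraries), Rpl4 (217), Rpl10 (178), Rps15a (172) and Rpl31 (159) had the highest values over both regions together. The order was not the same in each region: in dorsal striatum the highest were Rpl4 (221), Rps15a (171) and Rps15 (138), and in accumbens Rps15 (298), Rpl10 (229) and Rpl4 (213). Rps20 (4.44), Rpl35 (8.16), Rps16 (15.7) and Rpl34 (17.6) had the lowest over both regions among tested genes, while in accumbens alone Rplp0 (16.9) and Rpl27a (19.9) stood below Rps16 (22.3), and the median over the members was 46.6. For Rps20 the annotated transcript used here has 3706 bases with a coding length of 357, so its value per kilobase depends on that model. The models are also long beside the coding length for Rps24 (1613 and 399 bases), Rpl27a (1158 and 444), Rps16 (1109 and 438) and Rpl35 (946 and 369). Their low values carry the same limit. Counts of these genes are uncertain where near-identical copies exist, because reads aligned to several places are counted in a row of their own. Across the 76 tested genes, Spearman's rho between the number of copies and the mean CPM, not divided by transcript length, was 0.0154. Of the 76 tested genes, 73 had at least 1 other annotated gene with 95% identity over at least 80% of the coding sequence, and such sequences were mostly pseudogenes. That row held 9.93% and 10.2% of all reads in the accumbens tables and 6.98% and 8.75% in those of dorsal striatum. The 17 genes with at least 10 copies had a median log2 fold change of 0.46, and none passed. Of all 76 tested members 7.89% were higher past the threshold, and of all tested genes 0.994%. A difference by number of copies was not tested.

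The fold change varied with the length of the coding sequence. The 9 genes with at most 300 coding bases were Rpl37, Rpl37a, Rpl38, Rpl39, Rpl41, Rps21, Rps27, Rps28 and Rps29. All 9 had non-overlapping higher levels in accumbens, against 78.9% of the 76 members and 25.6% of all tested genes. Their median log2 fold change was 0.99. The median was 0.72 for 26 genes of 300 to 450 bases, 0.57 for 19 of 450 to 600, and 0.29 for 22 of more than 600. The last class held 7 of the 8 genes below 0, among them Rpl3, Rpl4, Rpl5, Rplp0 and Rps4x, and Rpl27a was the other. Across genes, Spearman's rho between fold change and coding length was −0.58 (n = 76), −0.59 in the large and −0.55 in the small subunit. These genes share the same 4 libraries and are not independent replicates. Longer members also had a higher mean CPM, a level that was not divided by transcript length (rho 0.62). Between replicates of 1 region rho was closer to 0, at 0.17 for accumbens replicate 1 over 2 and −0.13 for dorsal striatum replicate 2 over 1. The sign of these values depends on which replicate is divided by which.

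The values of other short transcripts are given beside those of the ribosomal protein genes. In the shortest decile of tested genes by transcript length (58 to 1193 bases), the 65 ribosomal protein genes had a median log2 fold change of 0.61 and the 1235 other genes one of 0.24, with quartiles of −0.21 and 0.69. In the second decile the medians were 0.34 for 8 members and 0.10 for 1288 others, and in the third 0.02 for 2 members and 0.03 for the others. Both accumbens libraries exceeded both dorsal striatum libraries for 36.8% of the other genes in the shortest decile, and 1.21% of these genes were higher past the threshold, against 1.54% in the longest decile. The difference between the ribosomal protein genes and the other short transcripts was not tested. With an offset for transcript length, fitted in each library, the medians fell to 0.28 in the large and 0.23 in the small subunit, and 58 of 76 genes were above 0. None of the 76 then passed, and 18 had an unadjusted p under 0.05. Under this offset the log2 fold change of Rps27 was 1.20 (adjusted p = 0.0608), that of Rpl41 0.92 (0.0615) and that of Rpl10a 0.69 (0.0712). Fitting the offset without the ribosomal protein genes gave medians of 0.32 and 0.25 and also 0 genes past the threshold.

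**Figure D3:**
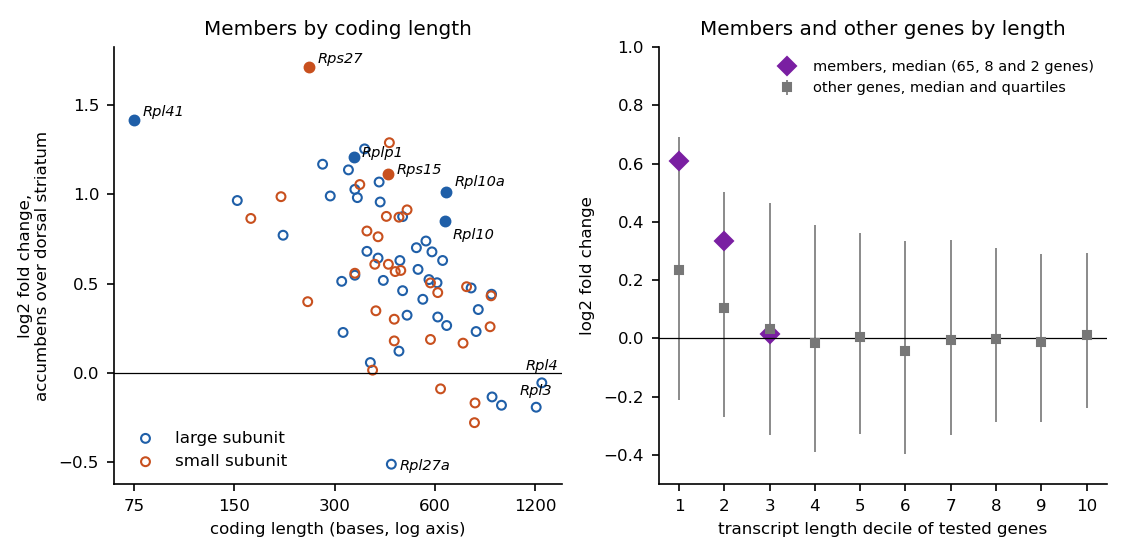
Left, log2 fold change against coding length (bases, log axis) for the 76 tested genes, large subunit in blue and small in orange, filled where the adjusted p was under 0.05. Right, median log2 fold change by decile of transcript length, for ribosomal protein genes (diamonds; 65, 8 and 2 genes in the first 3 deciles, with Rps20 in the seventh not drawn) and all other tested genes (squares, with quartile bars), which meet in the third decile.

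The starts of these genes were searched for pyrimidine runs in RefSeq promoter sequences (GRCm38.p6), which held 57 of the 77 genes. A run of at least 8 C or T bases lay within 50 bases of the annotated start, on the strand of the gene, for 48 of the 57 (84.2%), against 39.3% of all 27025 genes in the same window. On the opposite strand the run was found for 24.6% of these genes and 41.1% of all. The letters CTTTCC, which can lie inside such a run, were found on the strand of the gene for 31.6% of these genes and 5.43% of all, and on the opposite strand for 1.75% and 5.12%. Windows of 30 bases follow for 3 genes past the threshold (Rps27, Rps15 and Rpl10a), for Rplp2, and for Rpl27a, which had the lowest fold change. The run is in capitals, 5′ to 3′ on the strand of the gene.
Rps27: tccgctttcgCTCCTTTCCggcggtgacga
Rps15: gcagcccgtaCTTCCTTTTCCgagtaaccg
Rpl10a: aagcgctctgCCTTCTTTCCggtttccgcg
Rplp2: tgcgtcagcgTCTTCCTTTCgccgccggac
Rpl27a: acttcgtgagCTCCTCCCTTTTCCCTTTCT

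The windows are chr3:90213631-90213660 (minus) for Rps27, chr10:80292446-80292475 (plus) for Rps15, chr17:28328572-28328601 (plus) for Rpl10a, chr7:141447636-141447665 (plus) for Rplp2 and chr7:109519181-109519210 (plus) for Rpl27a. Counting the annotated start as position 1, with no position 0, the runs begin at −2 in Rps27, 26 in Rps15, 18 in Rpl10a, −5 in Rplp2 and −4 in Rpl27a. Rps27, with the highest fold change, and Rpl27a, with the lowest, thus both carry a run that spans the annotated start. That of Rpl27a is the longer, with at least 20 bases against 9, since it reaches the end of the printed window. The 47 tested genes with a run had a median log2 fold change of 0.61 and a range of −0.51 to 1.71, and the 9 without one had a median of 0.18 and a range of −0.28 to 0.99. These ranges overlap, and the difference was not tested.

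Other parts of the translation machinery did not have the same medians. The 7 tested ribosomal protein genes outside the symbol rule had a median log2 fold change of 0.68 with 0 past the threshold, and 6 were above 0. Some of the 7 had few counts: Rps27l had 14 to 38 per library (1.10, SE 0.79) and Rps4l 21 to 45 (1.14, SE 0.64). Rpl7l1 was below 0 (−0.30, SE 0.36). Among them, Fau, which encodes a fusion of a ubiquitin-like protein with a protein of the small subunit, had 0.78 (SE 0.29, adjusted p = 0.195). Gnb2l1, which encodes the small subunit scaffold RACK1, had 0.07 and was below 0 with library size alone (−0.10). The median was −0.03 for 12 elongation factors, 0.00 for 37 initiation factors and 0.01 for 47 genes of ribosome biogenesis and the nucleolus, with 0 past the threshold in each. The transcripts of these 3 lists are longer than most of those of the ribosomal protein genes, with medians of 2198, 2025 and 2302.5 bases. Single genes moved both ways. With an unadjusted p under 0.05, 2 elongation factors were higher and 0 lower, 5 initiation factors higher and 5 lower, and 3 biogenesis genes higher and 4 lower. Of all tested genes, 10.9% were higher at that level. Some elongation factor messenger RNAs are TOP messenger RNAs too, among them those of Eef1a1 and Eef2. Eef1a1 had a log2 fold change of 0.35 (SE 0.12, adjusted p = 0.177), and Eef2, at 488 and 538 against 448 and 559 CPM, one of −0.03 (SE 0.14).

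Of 21 genes that regulate TOP messenger RNAs or belong to the mTORC1 pathway, 0 passed, with a median of 0.24. Their median transcript length was 4586 bases. Larp1, the repressor that binds the TOP motif, had 0.14 (SE 0.13, and −0.03 with library size alone), and Cnbp, which binds TOP messenger RNAs, had 0.54 (SE 0.19, adjusted p = 0.175). The 11 tested hosts of small nucleolar RNAs had a median of 0.41 and 0 past the threshold. Gas5, a non-coding TOP transcript among them, had 0.56 (SE 0.18, adjusted p = 0.144). Eif4a1, a host that is also on the list of initiation factors, had 0.85 (SE 0.20, adjusted p = 0.0828). The 75 ribosomal proteins of mitochondria, which are longer (median transcript 1280 bases), had a median of 0.17 and 0 past the threshold. Subunits of the respiratory chain and ATP synthase, whose messenger RNAs are short like those of the ribosome (median 745 bases), had a median of 0.39. Of these, 3 of 80 passed, all higher: Cox8a (1.62), Cox7a2 (1.18) and Ndufa4 (1.12). The differences between these lists and the ribosomal protein genes were not tested.

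**Figure D4:**
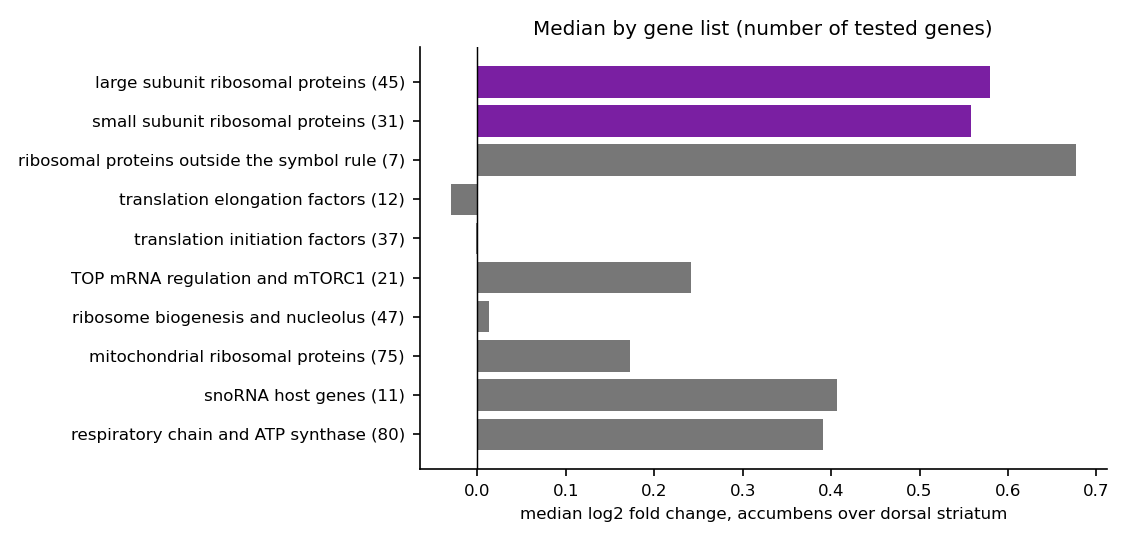
Median log2 fold change, accumbens over dorsal striatum (bars from 0), of the large and small subunit genes (purple) and of related gene lists (grey), with the number of tested genes in parentheses. The bars of the 2 subunits (0.58 and 0.56) and of the ribosomal proteins outside the symbol rule (0.68) extend farthest, and the last covers 7 genes, some with few counts. The bars of initiation, elongation and biogenesis genes lie within 0.03 of 0.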

How the data were processed

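The deposited tables, 1 per library, hold whole-number read counts for each gene symbol, with totals that differ between libraries. Per the submitters' processing notes, reads were aligned with STAR 2.0.0e to mm10 and counted with HTSeq. The sources used here give neither the annotation nor the strand setting, so overlapping and antisense genes cannot be told apart. Rows that name no gene (reads in no feature, ambiguous or aligned to several places) were left out throughout. Reads in no feature were 27.5% to 35.4% of all counted rows and ambiguous reads 6.06% to 9.46%.

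Counts were scaled with TMM factors in edgeR 4.0.16 (R 4.3.3), filtered with filterByExpr and fitted with region as the only term. The quasi-likelihood test was 2-sided, with Benjamini-Hochberg adjustment over all 14493 tested genes and a threshold of 0.05. Each adjusted p of a gene is from this test, with other settings only where named. The SE comes from the fold change on the log2 scale over the root of the F statistic. The procedure was tested on simulated data.

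Lengths came from the shortest best-ranked protein-coding transcript per gene in GENCODE M21 (GRCm38) and were known for 89.4% of tested genes. The length offset was a lowess fit (span 0.3) per library. Near-identical copies were found with blastn 2.17.0. Alternatives used DESeq2 1.42.0 and limma 3.58.1 and left out each library in turn. The length offset fitted without the ribosomal protein genes was added after seeing the data.

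The genes and all lists were chosen with earlier results of these data known. Beyond Rpl10a, the rule for named genes takes, in each subunit, those past the threshold and the 3 highest and 3 lowest by fold change and by CPM per kb. From each other list it takes up to 3 past the threshold or, with none, the 2 most abundant. Further genes were named through their place in the ribosome or singled out after their values were seen. Values of some genes are not reported here.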

Additional observations from a re-analysis of the deposited data

How the results depend on the processing

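The count of ribosomal protein genes, 6 as reported, was 3 with library size alone, 19 without a filter on low counts, 17 with the Wald test of DESeq2 and 0 with either length offset. It was also 0 among the genes with no near-identical copy, but only 3 such genes were tested, so that count says nothing about stability. Over the fits that leave out 1 library it ran from 1 to 37. For all tested genes, 186 as reported, it was 1203 without the filter, 884 with DESeq2 and 431 with limma-voom, and from 109 to 4464 with 1 library left out. The cause was not tested. The median fold changes, 0.58 and 0.56, were 0.28 and 0.23 with the length offset and 0.32 and 0.25 with the offset fitted without these genes. The difference in share of counts, 0.0655 percentage points, was 0.108 without Rn45s and AK140265 and 0.126 without the 50 most abundant other genes. The log2 difference of the ratio of large to small subunit counts, −0.01, was −0.0305 without Rpl10a, 0.0231 as a difference of mean log2 CPM, and ran from −0.0183 to 0.00399 with 1 library left out. A fit with the replicate number as a block called 17 ribosomal protein genes and 843 genes in all. The deviations of same-numbered libraries correlated at 0.03, so the numbers are not shown to pair the samples.

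Among the single genes named, signs changed for Rps15a, Gnl3l, Larp1, Ncl, Gnb2l1 and Eef2, none of which had passed the threshold. Rps15a was −0.0375 with upper quartile scaling, −0.156 with library size alone, and −0.356 and −0.314 with the length offsets. Gnl3l, of the biogenesis list, was −0.0450 under upper quartile scaling. Library size alone gave −0.163 for it and made Larp1 −0.0261, Ncl −0.0754 and Gnb2l1 −0.0982. Leaving out single libraries gave −0.0734 to 0.0839 for Rps15a, −0.0898 to 0.0936 for Gnl3l, −0.410 to 0.427 for Gnb2l1, −0.0436 to 0.217 for Ncl and −0.199 to 0.120 for Eef2.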
